A study of Arabidopsis thaliana with 6 samples.

Results

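The KIP-RELATED PROTEIN (KRP) genes of Arabidopsis, KRP1 to KRP7, encode inhibitors of cyclin-dependent kinases. They were identified on the array by their loci, and all 7 were measured among 32627 loci. KRP proteins bind complexes of a cyclin-dependent kinase, chiefly CDKA;1, with a D-type cyclin, and block their activity. The kinase complex otherwise phosphorylates RBR1, the retinoblastoma-related protein, which releases E2F transcription factors and lets cells begin DNA synthesis. In roots, KRP genes are known for restraining division, for limiting lateral root founding divisions and for the passage of cells into endoreduplication, in which DNA is copied without mitosis while cells elongate.

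Roots of pER8::OBP4 seedlings were compared with roots of pER8::GFP seedlings, which serve as the control, with 3 one-colour arrays per line. The pER8 vector places the gene it carries under the control of estradiol. Seedlings of either line, aged 5 days, spent 8 h on medium with 10 µM estradiol, so the control roots had the agent too. The light cycle was 16 h of light and 8 h of dark for all arrays. OBP4 (AT5G60850) is a DOF transcription factor, and the series concerns root growth, cell elongation and callus, so the comparison asks how the transcripts of these inhibitors stand in OBP4 roots against control roots. Roots that had no estradiol were not analysed here, and no source used here says how many independent transgenic lines stood behind each group. The replicates of a group came from separate culture plates.

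OBP4 transcript stood at 15.74, 15.83 and 15.86 on the log2 scale in OBP4 roots, against 14.37, 14.78 and 14.48 in control roots. Every OBP4 array lay above every control array, so the overexpressed gene followed the labels. The values in OBP4 roots were close to the scanner's ceiling near 16, so the size of this rise could be understated. The root markers of the lists were present, with group means from 10.90 upward for all 10. Of these 10, 3 fell, where 8.48% of all loci were lower: the root hair genes COBL9 (-1.12) and EXPA7 (-0.61) and the non-hair regulator WER (-0.53). Left-out arrays ended the calls of COBL9 and EXPA7 in 2 of 6 fits and that of WER in 5. Photosynthesis genes, listed as markers of shoot tissue, had array medians over 30 genes of 15.36, 11.23 and 13.44 in OBP4 roots, against 12.01, 11.65 and 13.07 in control roots. Of these 30 genes 0 passed the test by limma, where 13.7% of all loci passed. An unadjusted p under 0.05 was reached by 0 of them, against 28.5% of all loci, and their median difference was 0.90. At the error of each gene, the difference needed to pass ran from 1.53 (LHCA3) to 10.5 (RBCS2B). These counts therefore do not show that the groups held equal shoot tissue. In whole roots, fewer cells of a type and less RNA per cell cannot be told apart.

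Calls among the KRP transcripts went in both directions. KRP5 rose and KRP1 fell in OBP4 roots, while KRP2, KRP3, KRP4, KRP6 and KRP7 did not pass the test, which was limma with Benjamini-Hochberg adjusted p under 0.05 over all loci. That is 1 of 7 higher, where 5.23% of all loci were higher, and 1 of 7 lower, where 8.48% of all loci were lower; either way, 13.7% of all loci passed. The arrays of the groups did not overlap at 4 of the 7 genes, against 36.9% of all loci. At 3 genes (KRP3, KRP5 and KRP6) the OBP4 arrays were all higher, against 18.0% of loci, and at 1 (KRP1) all lower, against 18.9%. An unadjusted p under 0.05 was reached by 4 of the 7, and by 28.5% of all loci. With 7 genes, such shares are given as counts, and nothing about the family as a whole is read from them. The median difference (OBP4 minus control) over the 7 genes was 0.11 on the log2 scale, beside 0.02 over all loci, and 6 of the 7 differences were above 0. Their sign was the same under quantile normalization, median centring and cyclic loess. It turned in a second deposited table of the same sample names for KRP2, KRP4, KRP5, KRP6 and KRP7; in that table OBP4 itself differed by 0.0067 (limma's adjusted p = 0.98).

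**Figure D1:**
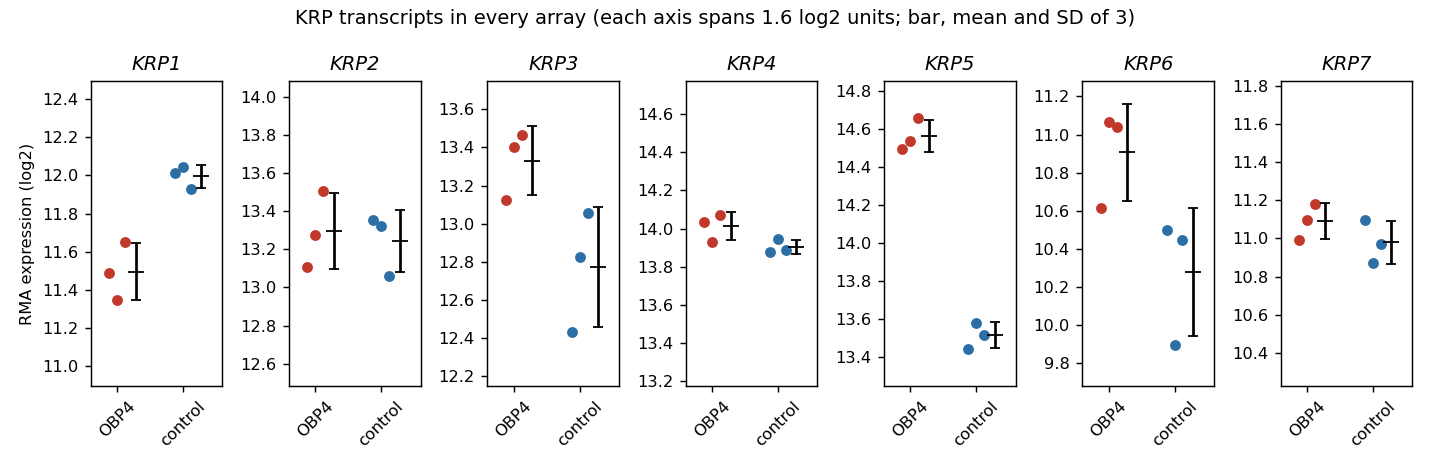
RMA expression (log2) of each KRP gene in each array, with OBP4 roots in red on the left and control roots in blue on the right; the black bar is the mean with the SD of 3 arrays, and every axis spans the same range. The KRP5 arrays of OBP4 roots sit between 14.49 and 14.65, well clear of the control arrays at 13.45 to 13.58, and the KRP1 arrays of OBP4 roots lie below those of control roots.

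KRP5 (AT3G24810; also ICK3; chromosome 3, 9060896 to 9061998, forward strand; positions are those of the arrays' annotation, and no source used here names its build) had the clearest change. KRP5 is known in the root as a promoter of endoreduplication and of cell elongation. Its RMA expression was 14.49, 14.54 and 14.65 in OBP4 roots, against 13.45, 13.58 and 13.52 in control roots. The lowest OBP4 array stood 0.91 above the highest control array, while the arrays of a group spanned 0.16 in OBP4 roots and 0.14 in control roots. Means were 14.56 ± 0.08 in OBP4 roots and 13.52 ± 0.07 in control roots (SD, n = 3 each). OBP4 roots exceeded control roots by 1.05 ± 0.08 (SE, log2), a change of 2.06-fold with a 95% interval of 1.81-fold to 2.36-fold and limma's adjusted p = 0.00127. By size of difference in either direction KRP5 ranked 2102 among the 32627 loci, within the first 6.44%. It passed in all 6 fits that each left out 1 array, with adjusted p from 0.00605 to 0.0109 and differences from 0.999 to 1.08. In the second deposited table its difference was -0.18 and did not pass (limma's adjusted p = 0.335).

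KRP1 (AT2G23430; also ICK1; chromosome 2, 9976746 to 9978021, reverse strand) was the only KRP gene to fall. KRP1 restrains division when overexpressed, and its transcript is known to respond to abscisic acid. Its expression was 11.49, 11.35 and 11.65 in OBP4 roots, against 12.02, 12.04 and 11.93 in control roots. The highest OBP4 array lay 0.28 below the lowest control array, and the OBP4 arrays spread more widely among themselves, over 0.30 against 0.11 in control roots. KRP1 averaged 11.50 ± 0.15 in OBP4 roots and 11.995 ± 0.06 in control roots (SD, n = 3 each). On the log2 scale it differed by -0.50 ± 0.10 (SE), so that its level fell by 29.3%, with limma's adjusted p = 0.0274. The call was not stable. It was lost without control replicate 1, control 2, control 3, OBP4 replicate 1 or OBP4 2, with adjusted p of 0.0685 to 0.092, and it was kept without OBP4 replicate 3 (adjusted p = 0.0296); the difference stayed between -0.58 and -0.43.

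KRP6 and KRP3 had higher means in OBP4 roots without passing the test. KRP6 (AT3G19150; also ICK4; chromosome 3, 6616352 to 6617696, reverse strand) encodes an inhibitor best known from the male germ line, where its breakdown allows division. Averaged over its 2 gene models, its expression was 10.61, 11.07 and 11.04 in OBP4 roots, against 10.50, 9.89 and 10.45 in control roots. No arrays of the groups overlapped, but the gap was 0.12, while the control arrays spanned 0.60 and the OBP4 arrays 0.46. Its difference was 0.63 ± 0.21 (SE), with a 95% interval of 0.09 to 1.16 and limma's adjusted p = 0.128, and with each array left out in turn it passed in 0 of 6 fits.

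The gene models of KRP6 differed in how exactly they were measured. Model 1, annotated over the whole span above and read by 4 probes, stood at 12.01, 12.40 and 12.42 in OBP4 roots, against 11.72, 11.72 and 11.76 in control roots. The groups did not overlap, and the control arrays were nearly alike. Model 2 (6616747 to 6617677), also with 4 probes, stood at 9.22, 9.74 and 9.66 in OBP4 roots, against 9.27, 8.06 and 9.14 in control roots. There the groups overlapped, and control replicate 2 was far below the other arrays. In a fit over all 37118 gene models, chosen after the data were seen, model 1 differed by 0.54 ± 0.13 (SE) with limma's adjusted p = 0.0491. Model 2 differed by 0.71 ± 0.36 (SE) with limma's adjusted p = 0.267. Both are models of the same locus, and whether their probes overlap was not tested.

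**Figure D2:**
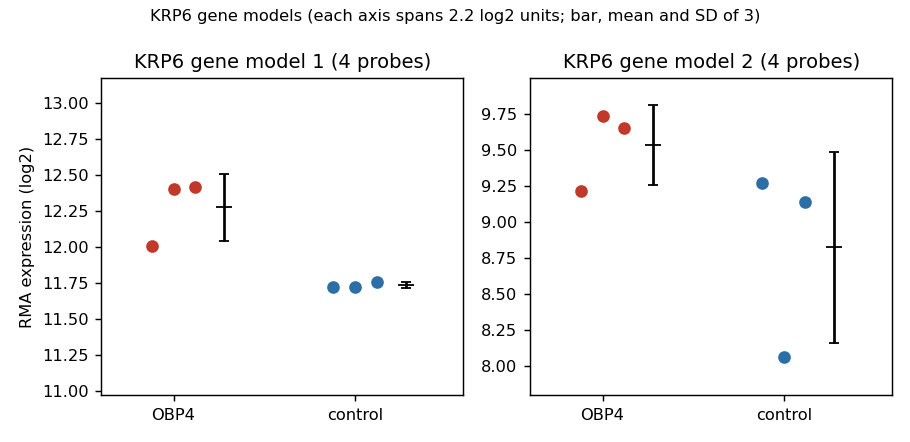
RMA expression (log2) of the KRP6 gene models 1 and 2 in each array, OBP4 roots in red on the left and control roots in blue on the right; the black bar is the mean with the SD of 3 arrays, and both axes span the same range. The control arrays of model 1 lie at 11.72 to 11.76, while control replicate 2 of model 2 lies at 8.06.

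KRP3 (AT5G48820; also ICK6; chromosome 5, 19792608 to 19794346, reverse strand) is an inhibitor gene of dividing tissues and was read by 3 probes, where the first model of the other members had 4. Its expression was 13.12, 13.40 and 13.46 in OBP4 roots, against 12.43, 12.82 and 13.06 in control roots. The groups did not overlap, but only 0.07 separated OBP4 replicate 1 from control replicate 3. The control arrays spanned 0.62. The difference was 0.56 ± 0.19 (SE), or 1.47-fold, with a 95% interval of 0.09 to 1.03 on the log2 scale and limma's adjusted p = 0.121. KRP3 passed where the spread was modelled with trend and robust settings (adjusted p = 0.0411) and without the dimmest 50% of loci (0.0479), and in 0 of the 6 fits without 1 array.

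KRP2, KRP4 and KRP7 differed by 0.11 or less. KRP2 (AT3G50630; also ICK2; chromosome 3, 18800380 to 18801587, forward strand) is known for restraining the divisions that found lateral roots, and its transcript for responding to auxin. Its expression was 13.11, 13.27 and 13.51 in OBP4 roots, against 13.35, 13.32 and 13.06 in control roots, so the groups overlapped across most of their range. The difference was 0.05 ± 0.14 (SE), with a 95% interval of -0.29 to 0.40 and limma's adjusted p = 0.842. Its sign turned without control replicate 3 or OBP4 replicate 3.

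KRP4 (AT2G32710; also ICK7; chromosome 2, 13873436 to 13875831, forward strand) is linked in the shoot meristem to the control of cell size at the start of DNA synthesis. It stood at 14.03, 13.93 and 14.07 in OBP4 roots, against 13.87, 13.95 and 13.89 in control roots. The groups overlapped narrowly, through OBP4 replicate 2 and control replicate 2. The difference was 0.11 ± 0.07 (SE), with a 95% interval of -0.06 to 0.28 and limma's adjusted p = 0.359. KRP7 (AT1G49620; also ICK5; chromosome 1, 18365491 to 18366559, reverse strand), like KRP6, is known as a target of the F-box protein FBL17. Its expression was 10.99, 11.10 and 11.18 in OBP4 roots, against 11.10, 10.87 and 10.97 in control roots. Here too the groups overlapped. The KRP7 difference was 0.11 ± 0.09 (SE), with a 95% interval of -0.12 to 0.34 and limma's adjusted p = 0.486.

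The precision of the 7 measurements was unequal, and it set how small a change could pass. The largest unadjusted p that passed over all loci was 0.00685. At the error of each gene this corresponds to a difference of 0.29 for KRP4, 0.32 for KRP5, 0.38 for KRP7, 0.41 for KRP1, 0.58 for KRP2, 0.79 for KRP3 and 0.90 for KRP6. KRP4 was thus the most finely measured, with a pooled SD of 0.06, and KRP6 the least, with 0.30, beside a median of 0.16 over all loci. These sizes use the same error and threshold as the calls, so a gene that did not pass always lies under its size. KRP3 and KRP6, at 0.56 and 0.63, lie under theirs for that reason, as do KRP2, KRP4 and KRP7. This restates the calls and adds no evidence of a change. The intervals of KRP4 and KRP7 end at 0.28 and 0.34, below the KRP5 interval, which begins at 0.85; the differences between members were not themselves tested. Group means of the 7 genes lay between 10.28 and 14.56, below the scanner's ceiling near 16. Levels of different genes come from different probes and are not ranked.

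**Figure D3:**
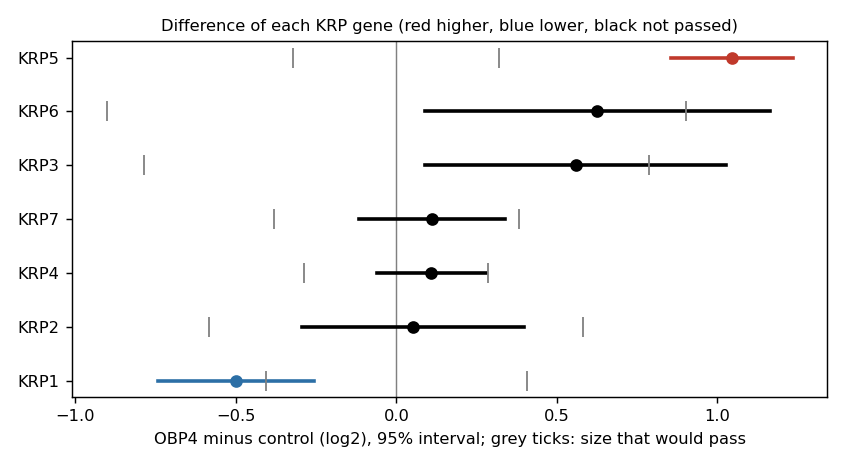
Difference of each KRP gene (OBP4 minus control, log2) as a point with its 95% interval, in red for higher, blue for lower and black for genes that did not pass; grey ticks mark the size of difference that would pass at that gene's error. KRP5 at 1.05 lies far beyond its tick at 0.32, and KRP1 at -0.50 lies just beyond its tick. The points of KRP2, KRP3, KRP4, KRP6 and KRP7 lie inside theirs, which restates that they did not pass.

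The arrays of OBP4 roots differed among themselves in their KRP values. In OBP4 replicate 3, all 7 KRP genes stood above their OBP4 mean, in replicate 2 there were 3 of 7, and in replicate 1 there was 1 of 7. In control roots, 4, 5 and 3 of 7 stood above the control mean in replicates 1 to 3. Over all loci, the share above the OBP4 mean was 40.1%, 58.1% and 49.4% in OBP4 replicates 1 to 3, and that above the control mean 49.7%, 45.9% and 53.6% in control replicates 1 to 3. OBP4 replicate 1 was lowest of its group for KRP2, KRP3, KRP5, KRP6 and KRP7, and it had the highest photosynthesis median, 15.36. With the mean of the photosynthesis genes as a covariate, chosen after the data were seen, KRP5 differed by 1.05 (limma's adjusted p = 0.00681). In that fit KRP1 differed by -0.52 and no longer passed (limma's adjusted p = 0.0525). Of the other genes named here, CCS52A1 (adjusted p = 0.0824), CYCA2;3 (0.0746) and WER (0.069) lost their calls in it too, and CDKD;1, SMR8, SMR3 and CYCD5;1 kept theirs.

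**Figure D4:**
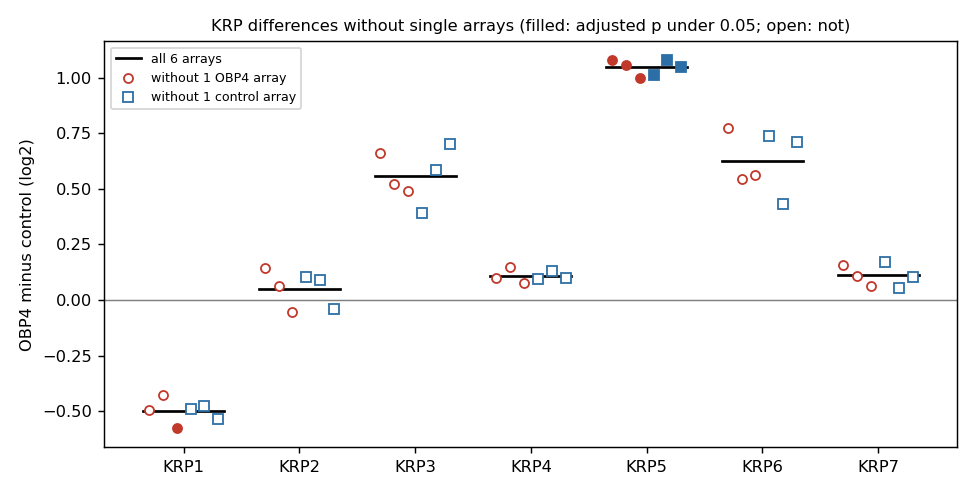
Difference of each KRP gene (OBP4 minus control, log2) with all 6 arrays (black line) and without each OBP4 array (red circles) or control array (blue squares) in turn; filled symbols passed at adjusted p under 0.05 and open symbols did not. All 6 KRP5 symbols are filled, at 0.999 to 1.08, and 1 of the 6 KRP1 symbols is filled.

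Genes of the kinase machinery that KRP proteins act on were called about as often as all loci, of which 13.7% passed. The kinase gene CDKA;1, the main target, stood at 15.21, 15.17 and 15.27 in OBP4 roots, against 15.06, 15.22 and 15.06 in control roots. These groups overlapped, and the difference was 0.10 ± 0.07 (SE; limma's adjusted p = 0.431). Among 12 genes of kinases and their regulators, 1 rose and 11 did not pass (8.33% called), with a median of 0.17. The one that rose was CDKD;1, which encodes a kinase that activates other cyclin-dependent kinases. CDKD;1 stood at 12.38, 12.61 and 12.70 in OBP4 roots, against 11.62, 11.61 and 11.69 in control roots. Its groups were far apart, with a difference of 0.92 ± 0.10 (SE; limma's adjusted p = 0.00408), and it passed in all 6 fits without 1 array. WEE1, which encodes an inhibitory kinase, did not pass (0.06; adjusted p = 0.629).

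Of the 10 D-type cyclin genes, whose products are the usual partners in KRP-bound complexes, 0 rose, 1 fell and 9 did not pass, near the 8.48% of all loci that were lower. CYCD5;1 fell by 0.49 on the log2 scale (limma's adjusted p = 0.0152), to 11.22, 11.07 and 11.24 in OBP4 roots, against 11.59, 11.73 and 11.70 in control roots. It kept its call in 4 of the 6 fits without 1 array. The median of the D-type cyclins was -0.01, too close to 0 for a direction, while single differences ran from -0.72 to 0.41. The lowest was that of CYCD7;1, which averaged 6.32 in OBP4 roots and 7.05 in control roots. These levels are dim for this array and make its difference less certain, and CYCD7;1 is included in the counts that follow. An unadjusted p under 0.05 by limma was reached by 6 of the 10, against 28.5% of all loci. The arrays of the groups did not overlap at 7 of the 10, against 36.9% of all loci. Among 9 A-type cyclin genes, CYCA2;3, known as a brake on endoreduplication, rose by 0.54 ± 0.11 (SE; limma's adjusted p = 0.0331), and 8 did not pass; of all loci 5.23% were higher. With each array left out in turn, CYCA2;3 passed in 2 of 6 fits.

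Downstream of the inhibited kinase, no gene of the lists of RBR1 and E2F, of DNA synthesis or of mitosis passed. RBR1 stood at 15.17, 15.28 and 15.15 in OBP4 roots, against 15.12, 15.07 and 15.16 in control roots, with a difference of 0.08 ± 0.07 (SE; limma's adjusted p = 0.474). RBR1 and CDKA;1 had group means over 15, close to the scanner's ceiling near 16, so a rise in either could be understated. The same limit holds for other listed genes with group means over 15, among them PCNA2, KNOLLE, CDC20.1, SIM and RHF2A. None of the 9 RBR1, E2F and DP genes passed by limma (median 0.09, range -0.03 to 0.31). The same held for 15 genes of DNA synthesis (median 0.01, range -0.19 to 0.18) and for 17 mitosis genes (median -0.05, range -0.31 to 0.21). An unadjusted p under 0.05 was reached by 1, 1 and 2 genes of these lists in that order, where 13.7% of all loci passed after adjustment and 28.5% before it. Of the 3 genes for activators of the anaphase-promoting complex, CCS52A1, which favours entry into the endocycle, fell by 0.33 (limma's adjusted p = 0.0372) and CCS52A2 differed by 0.04 (adjusted p = 0.768). CCS52A1 passed in 0 of the 6 fits without 1 array, at adjusted p from 0.0564 to 0.113.

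The SIAMESE family, the other group of cyclin-dependent kinase inhibitors in plants, gave calls in both directions as well. Of the 9 genes listed here, SIM and SMR1 to SMR8, which are not the whole family, SMR8 rose by 0.68 ± 0.09 (SE; limma's adjusted p = 0.0076), SMR3 fell by 0.67 on the log2 scale (adjusted p = 0.0149), and 7 did not pass, where 13.7% of all loci passed. SMR8 stood at 14.28, 14.24 and 14.43 in OBP4 roots, against 13.58, 13.76 and 13.59 in control roots. SMR3 stood at 14.23, 14.44 and 14.28 in OBP4 roots, against 15.17, 14.91 and 14.89 in control roots. The groups overlapped at neither gene. SMR8 passed in all 6 fits without 1 array, and SMR3 in 5. The median of the 9 genes was 0.01.

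Of 5 genes for the breakdown of KRP proteins, 0 rose or fell by limma, where 13.7% of all loci passed. An unadjusted p under 0.05 was reached by 0 of the 5, against 28.5% of all loci, and the median was -0.03. With so few genes, these counts do not set the list apart from all loci. The list holds genes of the F-box proteins FBL17, which removes KRP6 and KRP7, SKP2A, and SKP2B, which acts on KRP1. It also holds those of the RING proteins RHF1A and RHF2A, which act on KRP6. FBL17 differed by 0.01 (95% interval -0.16 to 0.18), SKP2A by -0.03, RHF1A by 0.15 and RHF2A by -0.04. SKP2B had the largest difference, -0.33 ± 0.14 (SE), with limma's adjusted p = 0.192. Protein levels were not measured, so breakdown of the inhibitors themselves is outside these data.

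**Figure D5:**
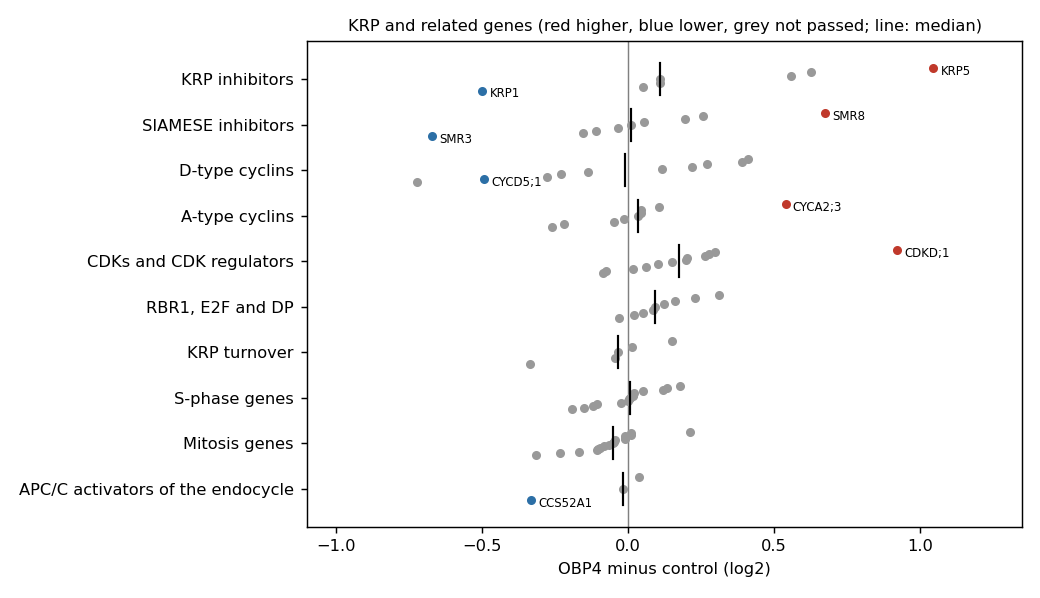
Difference (OBP4 minus control, log2) of every gene in the KRP family and in 9 lists of the same machinery; points are red where higher, blue where lower and grey where the test was not passed, and the black line is the list's median. KRP5 at 1.05 and CDKD;1 at 0.92 lie furthest to the right, and the S-phase, mitosis, RBR1 and KRP turnover lists hold grey points only.

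Some other genes followed KRP5 and KRP1 closely across the arrays. Likeness was measured as the root mean square difference between log2 profiles over the 6 arrays, each centred on its own mean, among 10596 loci with a symbol. Nearest to KRP5 were PFK3, a phosphofructokinase gene, at 0.05, ROS4, a histone acetyltransferase gene of active DNA demethylation, also at 0.05, and MYB305 at 0.06. BSL1, a phosphatase gene of brassinosteroid signalling, at 0.06 and XIP1, a receptor kinase gene of the vasculature, at 0.07 followed. Their differences ran from 1.01 (MYB305 and ROS4) to 1.12 (PFK3). The choice by profile fixes that these differences and their spread are close to those of KRP5, so no test is given for them. Nearest to KRP1 were ZF3, a zinc finger gene, at 0.03, BLH3, a homeobox gene, at 0.05, LCR62, a gene of a small cysteine-rich protein, HK1, a histidine kinase gene of water stress, and GLYI4, a glyoxalase gene, the last 3 at 0.05 as well. Here the differences ran from -0.45 (LCR62) to -0.59 (BLH3), and their likeness to KRP1 is again set by the choice. LCR62 averaged 6.92 in OBP4 roots and 7.37 in control roots, which is dim for this array and makes its fold less certain. A small distance says that the values ran alike over these arrays and nothing of shared control.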

How the data were processed

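Per the labels' protocols, double-stranded cDNA from 10 µg of RNA carried Cy3. The authors deposited log2 values for 37118 gene models in 6 arrays; their titles name RMA, and no source used here names its software or settings. The deposited tables also give the probes per model. A second deposited table of log2 values, of unstated normalization, served as an alternative source. No 2 arrays held identical values.

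Rows of a locus were averaged, giving 32627 loci. Symbols came from the TAIR10.1 RefSeq table, which held 31993 loci and all 7 KRP loci. The main test was two-sided, by limma 3.58.1 (lmFit, eBayes) in R 4.3.3. Its p-values were adjusted by Benjamini and Hochberg's method across all 32627 loci, and 0.05 was the threshold. No filter was applied. Depth does not apply to arrays; 3 per group limit the precision.

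The members, the 12 gene lists and the tests were chosen with earlier results of these data known. Lists are described by counts and medians. Named genes are OBP4, the 7 KRP genes, 10 fixed machinery genes, up to 3 passing members per list by size, and the 5 nearest profiles of each passing KRP gene. Simulated data with 32627 loci held known changes: the fit found 7 of the 67 that were 0.5 in size, 31 of the 67 at 1 and 50 of the 66 at 2, and made 2 false calls. Far fewer loci changed there than the 4472 called in the data, and the adjusted threshold is stricter when fewer loci change. These shares are thus a check of the fit and not detection rates for this comparison. Figures used matplotlib 3.10.9.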

Additional observations from a re-analysis of the deposited data

How the results depend on the processing

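Alternatives were quantile normalization, median centring, cyclic loess, the second deposited table, dropping the 25% or 50% of loci with the lowest means, a trend and robust variance model, the replicate block, the brightest gene model of each locus, adjusted p under 0.01, each array left out in turn and, chosen after the data were seen, the photosynthesis covariate and single KRP6 models. KRP6, KRP7 and CYCD5;1 have no value without the dimmest 50% of loci, and LCR62 none without the dimmest 25% either. Of 119 alternative values for KRP genes, 99 kept direction and side of the threshold. For the 5 KRP genes that did not pass in the main fit, keeping the side means staying uncalled. KRP5 kept both in 16 fits and KRP1 in 8, where each had 6 fits without 1 array and 11 others. Settings that alter only the threshold, the variance model or the loci included leave the difference itself as it was. KRP genes higher numbered 2 without the dimmest 50%, with trend and robust settings (KRP3 added) and with the brightest row per locus (KRP6 added). KRP genes lower numbered 0 at adjusted p under 0.01 and with the covariate, and 0 to 1 without single arrays. Over all loci, higher calls numbered 892 to 1309 and lower calls 1571 to 2048 without single arrays, 669 and 1295 at adjusted p under 0.01, and 2561 were higher with trend and robust settings. Same-numbered arrays did not deviate together (correlations of -0.20, 0.09 and -0.17), so the numbers are not taken as pairs. With the replicate block, 588 loci were higher and 1114 lower, KRP5 passed (adjusted p = 0.0257) and 0 KRP genes were lower (KRP1 adjusted p = 0.129).

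From the second deposited table, limma called 1034 loci higher (57.1% of calls, against 38.1% in the arrays) and 778 lower. There 0 KRP genes were higher and 0 lower. OBP4 itself differed by 0.0067 (limma's adjusted p = 0.98), so the overexpressed gene did not follow the labels in that table. No source used here says which hybridizations it holds, so its values are not read as an effect of processing alone. Differences turned sign there for KRP2 (-0.11), KRP4 (-0.18), KRP5 (-0.18), KRP6 (-0.09), KRP7 (-0.037), CDKA;1 (-0.043), WEE1 (-0.26), RBR1 (-0.16), FBL17 (-0.23), SKP2A (0.16), SKP2B (0.15), CCS52A2 (-0.27), CYCA2;3 (-0.043), CDKD;1 (-0.03), ZF3 (0.28), LCR62 (0.057), PFK3 (-0.05), ROS4 (-0.23), MYB305 (-0.17) and BSL1 (-0.11); the cause was not tested. Without single arrays, small differences turned sign for KRP2 (-0.054 to 0.15), FBL17 (-0.012 to 0.051), SKP2A (-0.084 to 0.0017) and CCS52A2 (-0.010 to 0.075). Signal over background is not given in the files, so dim genes cannot be told from undetected ones.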

Other observations

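The genes that lie beside the KRP genes on the chromosomes were measured too. Of the 14 nearest measured neighbours, 1 on each side of each KRP gene by the order of the TAIR10.1 reference table, 2 rose, 1 fell and 11 did not pass, where 13.7% of all loci passed. Beside KRP5, which rose by 1.05, PRT1, the gene of a ubiquitin ligase of the N-end rule pathway, rose by 0.40 ± 0.06 (SE; limma's adjusted p = 0.014) and AT3G24820 differed by -0.25 (adjusted p = 0.0957). Beside KRP1, which fell by 0.50 on the log2 scale, NAPRT2, a nicotinate phosphoribosyltransferase gene, rose by 0.82 ± 0.07 (SE; limma's adjusted p = 0.00237). Beside KRP2, AT3G50640 fell by 1.06 on the log2 scale (limma's adjusted p = 0.00457). The neighbours were chosen after the KRP values were seen; with each array left out in turn, PRT1 passed in 1 of 6 fits, and NAPRT2 and AT3G50640 in all 6.

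In the second deposited table, which carries the same sample names, KRP5 stood at 13.16, 13.05 and 13.04 under the OBP4 labels, against 13.17, 13.23 and 13.39 under the control labels. KRP1 stood there at 12.58, 12.58 and 12.50 under the OBP4 labels, against 12.64, 12.84 and 12.51 under the control labels.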
